A study of Mus musculus with 35 samples.

Results

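The lungs compared here came from 5 mice that breathed styrene at 120 ppm and 5 mice that breathed air alone. They were chosen by the concentration named in the sample labels, and they are 10 of the 35 mice of the series. Styrene is a volatile solvent used in plastics. All were adult male CD-1 mice, an outbred stock, from 1 supplier, and whole lung was taken on the morning after the last exposure. The labels disagree on how long the mice were exposed. The protocol and the sample titles give a single exposure of 6 hours on 1 day, the sample characteristics give 5 days, and no choice between them is made here. The series also exposed 5 mice each to 1, 5, 10, 20 and 40 ppm, and the 40 ppm group is the second comparison below because it holds no control mouse. Nothing in the labels says whether mice of a group shared a chamber or an exposure session, so p-values measure the spread between these mice.

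In the mouse lung, styrene is oxidised by cytochrome P450 enzymes, mainly in the club cells that line the small airways, to styrene oxide and to ring-oxidised products. Styrene oxide is a reactive epoxide that epoxide hydrolases turn into a diol and that glutathione transferases join to glutathione. The air spaces beyond are lined by flat type 1 and surfactant-making type 2 cells, lie against a dense capillary bed and stretch on a net of elastic fibres. In RNA from whole lung, fewer cells of a type and less RNA per cell cannot be told apart.

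The marker genes of lung were bright on all 10 arrays. The surfactant gene Sftpc lay at 13.69 to 13.82 log2 in the air mice and at 13.75 to 13.78 in the 120 ppm mice. The club cell gene Scgb1a1 lay at 13.68 to 13.83 and at 13.73 to 13.88. The groups overlapped for both genes. Both lay near the highest mean of any gene, 13.8 log2, and whether the signal is compressed at that level was not tested. The arrays of the groups nevertheless stood apart as a whole. The interquartile range of an array, the width of its middle values over all probe sets, was 3.04 ± 0.0917 log2 (SD, n = 5) in air and 3.42 ± 0.0207 at 120 ppm (two-sided exact permutation test, p = 0.00794, adjusted p = 0.0106 over 4 array measures). That p is the smallest that 5 against 5 arrays can give. Arrays correlated at a mean of 0.981 within air, 0.988 within 120 ppm and 0.927 between the groups. The part of this separation in single genes cannot be told apart from the exposure. Calls were also taken with an array axis as a covariate, the strongest direction in which mice of 1 concentration differed among themselves, over all 7 groups. The groups share no range of that axis, so values fitted with it are extrapolated.

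Genes typical of fat and heart also differed between mice. Ucp1, the uncoupling protein of brown fat, read 11.39 log2 in 120 ppm mouse 3 and 3.75 to 4.91 in the other 9 mice. Nppa, a hormone of the heart's atria, read 12.71 in the same mouse, 10.45 in air mouse 1 and 3.68 to 7.26 in the rest. Of the 20 measured genes of heart and skeletal muscle, 1 was higher and 5 lower at 120 ppm, and of 9 fat cell genes 1 was higher and 1 lower. Without 120 ppm mouse 3 these counts were 0 higher and 7 lower for muscle and 0 and 1 for fat. The mean level of the fat genes ran from 4.98 to 6.57 log2 in the air mice and from 4.77 to 8.81 in the exposed mice, and that of the muscle genes from 5.64 to 7.42 and from 4.33 to 8.14. In both lists 120 ppm mouse 3 was the highest of all 10 mice. Whether tissue from outside the lung was in the samples, and its part in the results, was not tested. For some lists and genes, not all, the results are therefore also given without 120 ppm mouse 3.

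Exposure to 120 ppm came with differences in most of the genes measured. A gene was called at an adjusted p under 0.05, from limma's moderated test with Benjamini-Hochberg adjustment over all 17097 genes. That was met by 11784 genes, 68.9% of those tested, and calls in this comparison are therefore common for any gene. Of all genes, 29.8% were called higher at 120 ppm and 39.1% were called lower. Among genes of at least 5 log2 the balance turned, with 4507 called higher and 3912 lower. The calls included 2775 genes at least 2-fold higher and 2022 at least 2-fold lower. The median difference over all genes was -0.148 log2, and the median size of a difference was 0.520. In 50.7% of genes the 5 exposed and the 5 air mice did not overlap at all. With the array axis as a covariate, 3877 of the 11784 calls stayed calls in the same direction, 32.9%. Every list count below is to be read beside these shares over all genes, 29.8% higher, 39.1% lower and 32.9% kept.

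Against 40 ppm the picture was another. The median size of a difference between 120 and 40 ppm was 0.0988 log2, and 3 genes were called, 0.0175% of those tested. At an unadjusted p under 0.05, 1625 genes passed. All 3 called genes were lower at 120 ppm. In simulated data of the same size, the fit found 90 of 100 genes set to differ by 1 log2 between these groups and 44 of 100 set to differ by 0.5. Differences under 0.5 log2 were not simulated. The simulated mice varied independently in each gene, whereas the real arrays share an axis, so these shares need not hold here.

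**Figure D1:**
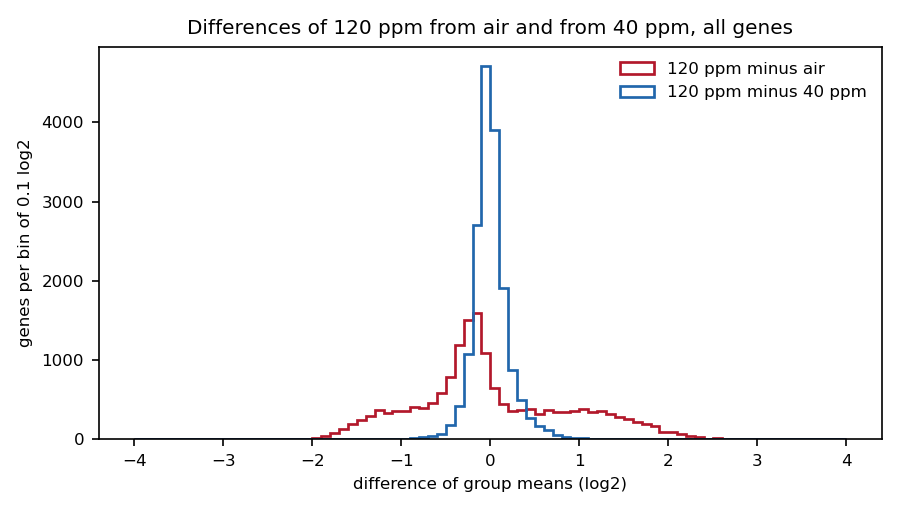
Number of genes (vertical axis, per bin of 0.1 log2) by the difference of group means (horizontal axis, log2) for 120 ppm minus air in red and 120 ppm minus 40 ppm in blue. The red curve is wide, with a median size of 0.520 log2, and the blue one is narrow, with a median size of 0.0988.

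The 3 genes called between 120 and 40 ppm were Eln, Mrc2 and Loxl1. Eln encodes elastin, the rubber-like core of elastic fibres. Loxl1 encodes a lysyl oxidase-like enzyme that cross-links elastin, and Mrc2 encodes Endo180, a receptor that takes up collagen. Eln read 7.79, 8.66, 7.07, 7.55 and 7.59 log2 in the 120 ppm mice, 8.85, 9.15, 9.38, 8.92 and 8.86 in the 40 ppm mice and 10.61, 10.11, 9.61, 9.91 and 9.99 in the air mice. Every 120 ppm mouse lay below every 40 ppm mouse, and every 40 ppm mouse below every air mouse. Eln was -1.30 ± 0.21 log2 (SE) at 120 against 40 ppm (limma adjusted p = 0.0103) and -2.31 ± 0.21 against air, a 4.97-fold fall (limma adjusted p = 2.5e-11). It is the largest fall from air among genes with a mean of at least 8 log2 whose groups do not overlap.

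Mrc2 read 7.27, 7.70, 7.13, 6.92 and 7.36 log2 at 120 ppm, 8.10, 7.92, 7.99, 8.04 and 7.86 at 40 ppm and 8.47 to 9.13 in air. Loxl1 read 8.87, 9.40, 8.79, 8.55 and 8.83 at 120 ppm, 9.56, 9.62, 9.71, 9.49 and 9.54 at 40 ppm and 10.19 to 11.06 in air. For neither gene did the 3 groups overlap. The difference from 40 ppm was -0.71 log2 for Mrc2 (limma adjusted p = 0.01) and -0.70 for Loxl1 (limma adjusted p = 0.046). Over 19 alternative settings Eln was called in 14, Mrc2 in 12 and Loxl1 in 5, so the call of Loxl1 was lost in most of them. With the mouse number as a block Loxl1 was not called (limma adjusted p = 0.052), and in a fit of the 2 groups alone none of the 3 was. The order was not that of the concentrations. At 5 ppm Mrc2 lay at 7.07 to 7.53 and Loxl1 at 8.82 to 9.30, which overlaps the 120 ppm mice for both. Eln at 5 ppm lay at 8.49 to 9.45, and 120 ppm mouse 2 reached into that range. Without 120 ppm mouse 2, the mouse with the highest level of all 3 genes in its group, 14 genes were called against 40 ppm. Without 120 ppm mouse 3, 120 ppm mouse 4 or 40 ppm mouse 3, 0 were. The second probe set of each gene was also lower at 120 than at 40 ppm, by -1.01 log2 for Eln, -0.63 for Mrc2 and -0.38 for Loxl1, and none of these passed when every probe set was tested (limma adjusted p = 0.152, 0.275 and 0.774).

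**Figure D2:**
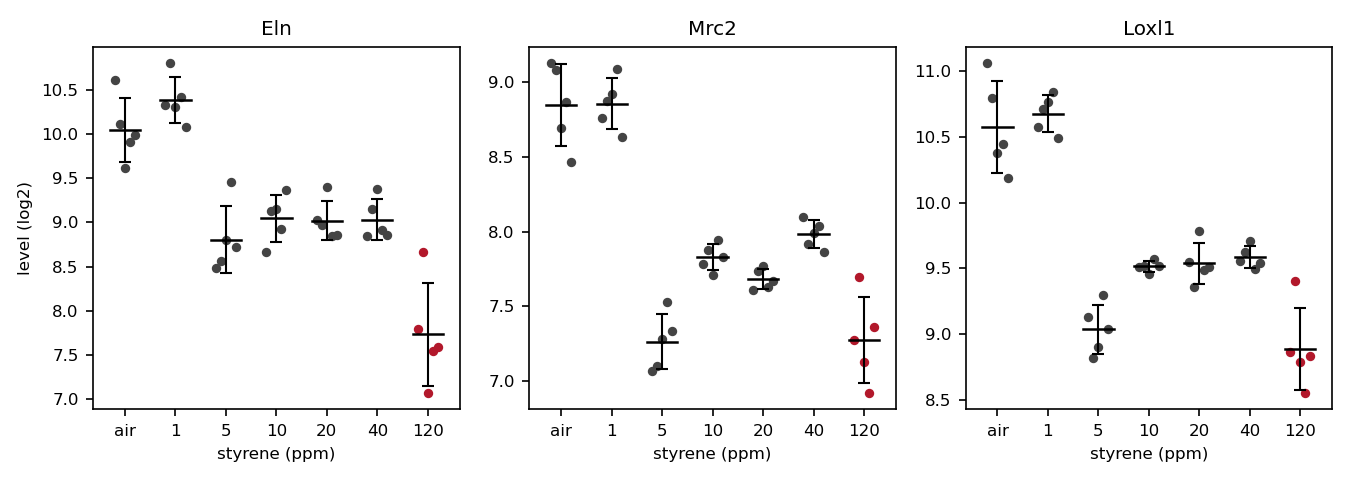
Level (log2, vertical axes with different ranges that do not start at 0) of Eln, Mrc2 and Loxl1 in each of the 35 mice by styrene concentration (ppm, horizontal axes), with 1 point per mouse, the group mean as a bar and the SD as whiskers. The 5 mice at 120 ppm, in red, lie below those at 40 ppm for all 3 genes, and for Mrc2 and Loxl1 the 5 ppm mice are as low as them.

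Other genes of the elastic fibre went both ways. Of 19 measured members, 10 fell and 5 rose against air, with a median of -0.234 log2, beside 39.1% and 29.8% of all genes. Emilin1, a glycoprotein of the elastin surface, read 8.68 to 9.53 log2 in air and 7.05 to 7.16 at 120 ppm, a 3.89-fold fall (limma adjusted p = 8.7e-14). The latent TGF-beta binding proteins, which hold the growth factor in the matrix, also fell. Ltbp3 and Ltbp4 each fell 2.61-fold and Ltbp2 fell 2.62-fold, with the groups apart for all of them. Mfap2, a microfibril protein, fell 2.32-fold. The members that rose include Efemp1 (fibulin-3), at 8.59 to 9.31 in air and 9.61 to 10.37 at 120 ppm, 2.59-fold higher (limma adjusted p = 3.8e-10). Lox, the founding lysyl oxidase, rose 1.91-fold and Fbln5, which guides elastin onto the fibre, rose 1.27-fold. The call of Fbln5 was lost without air mouse 1 (difference 0.19 log2, limma adjusted p = 0.113), and with the array axis Lox turned to -0.62 (limma adjusted p = 0.303). Under the axis 7 of the 15 calls of the list stayed.

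Among genes with a mean of at least 8 log2 and groups that do not overlap, the 12 largest rises and the 12 largest falls are those named next. Nr1d2, the clock repressor REV-ERB beta, read 6.32, 6.73, 7.47, 7.74 and 7.93 log2 in air and 10.22, 9.70, 10.20, 10.99 and 10.48 at 120 ppm. It was 8.45-fold higher (log2 difference 3.08 ± 0.43 SE, limma adjusted p = 1.2e-07), with a wide spread in air. Chil4, a chitinase-like protein of macrophages and airway cells, read 8.74, 9.68, 9.82, 9.22 and 9.51 in air and 12.14, 11.96, 12.23, 12.40 and 11.97 at 120 ppm. It was 6.70-fold higher (limma adjusted p = 7.1e-13), and the exposed mice were the tighter group. The other probe set of Chil4 was dim, with means of 3.34 in air and 3.47 at 120 ppm, and was not called (limma adjusted p = 0.314). Chil3, a relative of Chil4, was 2.70-fold higher. Retnla, a secreted resistin-like protein, was 5.11-fold higher, at 7.73 to 8.86 in air and 9.80 to 11.22 at 120 ppm.

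Snx5, a sorting nexin of endosomes, rose 5.37-fold, and Oxct1, the enzyme that activates ketone bodies for burning, rose 5.36-fold. The kinase genes Jak1, of cytokine receptors, and Prkd3, a protein kinase D, rose 4.73-fold and 5.02-fold. Cab39, a partner of the kinase LKB1, rose 5.00-fold. Jak1 read 6.14, 6.75, 6.48, 6.88 and 7.28 log2 in air and 8.96, 8.91, 8.88, 9.02 and 8.97 at 120 ppm, so the exposed mice differed by far less among themselves than the controls. Itfg1 lay at 8.89 to 9.13 at 120 ppm, Bzw1 at 9.03 to 9.45 and Tspan2 at 8.45 to 9.22, and air mouse 5 had the highest air level of all 3.

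Among the falls after Eln, Gja4, the gap junction protein connexin 37 of arterial endothelium, read 10.53, 10.66, 10.23, 9.98 and 9.98 log2 in air and 7.98, 8.64, 8.20, 8.14 and 8.23 at 120 ppm. It fell 4.11-fold (limma adjusted p = 2.2e-14), with the groups more than 1 log2 apart. Plod1, which hydroxylates collagen lysines, fell 3.74-fold and Adamtsl2, a matrix protein that binds LTBP1, fell 3.68-fold. Fscn1, the actin bundler fascin, fell 3.66-fold, but 120 ppm mouse 3 stayed at 9.23 while its group mates read 7.886 to 8.004. Scarf2, a scavenger receptor, fell 3.84-fold, Ints5, a subunit of the Integrator complex, 3.57-fold, and Selenom, a selenoprotein of the endoplasmic reticulum, 3.56-fold. Of 4 probe sets of Ints5 3 fell. The other was also bright, with means of 8.73 log2 in air and 8.71 at 120 ppm, and was not called (limma adjusted p = 0.906). Gm13889, N4bp3, Card19 and Ptp4a3 complete the group of falls. Of 32 further probe sets that measure 17 of these 24 genes, 29 were called in the same direction, 0 in the opposite one and 3 not at all. Under the array axis 22 of the 24 calls stayed, all but those of Nr1d2 and Fscn1. The genes were picked for large differences, so this count cannot be set against the 32.9% over all genes.

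**Figure D3:**
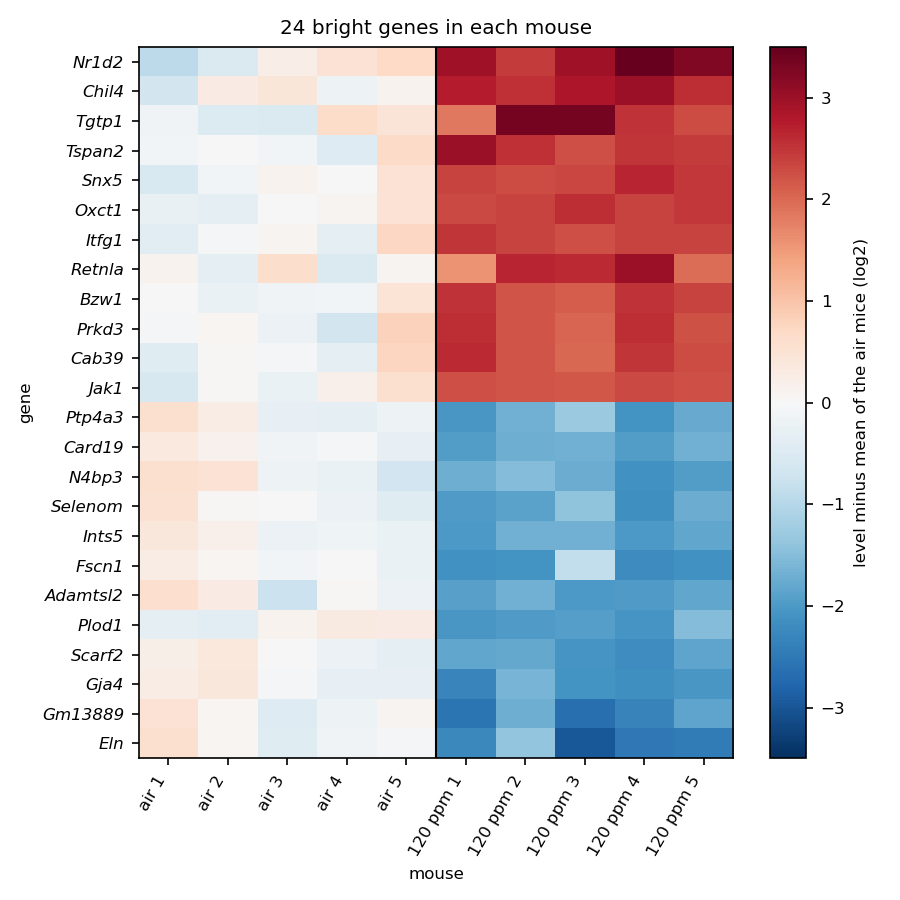
Level of 24 bright genes (rows) in each of the 10 mice (columns, air on the left), as the difference from the mean of the air mice on a log2 colour scale, red for higher and blue for lower. By the rule that picked these genes, the 5 exposed mice lie beyond all air mice in each of them. 120 ppm mouse 3 is paler for Fscn1.

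Of the styrene oxidases, Cyp2f2 and Cyp4b1 were bright in every mouse and did not pass. Cyp2f2, the P450 of club cells that oxidises styrene, read 12.95 to 13.14 log2 in air and 13.07 to 13.21 at 120 ppm, a difference of 0.08 ± 0.06 (limma adjusted p = 0.27). Cyp4b1 read 12.18 to 12.48 and 12.28 to 12.34, a difference of -0.08 (limma adjusted p = 0.3). Cyp2e1, the other main styrene oxidase, spread from 5.81 to 7.72 in air and from 6.62 to 10.26 at 120 ppm, with 120 ppm mouse 3 on top, and did not pass (limma adjusted p = 0.24). Cyp2a5, another P450 that oxidises styrene, read 7.77 to 9.90 in air and 10.18 to 11.25 at 120 ppm and was 3.08-fold higher (limma adjusted p = 0.0013). Cyb5a and Cyb5b, cytochromes that pass electrons to P450s, rose 2.27-fold and 2.46-fold. Of 3 probe sets of Cyb5b 2 rose and 1 was not called. Cyp1b1, a P450 induced through the aryl hydrocarbon receptor, rose 2.26-fold from a low level. Of its 3 probe sets 1 rose, 1 fell and 1 was not called.

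The epoxide hydrolase Ephx1, which opens styrene oxide, was at 10.48 to 10.69 log2 in air and 10.15 to 10.53 at 120 ppm. It was 1.19-fold lower with overlapping groups (limma adjusted p = 0.02). Without 120 ppm mouse 1 the difference was -0.21 (limma adjusted p = 0.0696), without 120 ppm mouse 2 it was -0.22 (limma adjusted p = 0.0561), and with the array axis it was 0.04 (limma adjusted p = 0.917). Ephx2, the soluble hydrolase, was not called and read 8.63 in 120 ppm mouse 3 against 4.37 to 5.59 in its group mates. The list of 19 measured genes also holds Hmox1, other P450s and their electron donors, so it is wider than styrene metabolism. In it 6 genes rose and 3 fell, beside 29.8% and 39.1% of all genes, and 1 of these 9 calls stayed with the array axis. The axis also added calls, of Cyp2e1 at 4.51 log2 (limma adjusted p = 0.00603) and Ephx2 at 3.65 (limma adjusted p = 0.00484).

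Genes of glutathione supply and conjugation went both ways, 10 up and 10 down of 28, with a median of -0.0183 log2. Of all genes 29.8% were called higher and 39.1% lower. Gstk1, a transferase of mitochondria and peroxisomes, read 7.79 to 8.48 in air and 9.59 to 9.94 at 120 ppm and rose 3.03-fold (limma adjusted p = 3.4e-13). Gsta4, which joins glutathione to lipid aldehydes, rose 3.03-fold as well, from 8.31 to 9.34 up to 10.30 to 10.68. Abcc4, an exporter of conjugates, rose 3.54-fold. Against these, Mgst3, a membrane transferase, fell 2.50-fold and Chac1, which breaks glutathione down, fell 3.78-fold, from 7.39 to 8.59 down to 5.78 to 6.51. Once the axis was added, 13 of the 20 calls stayed.

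The redox list held 10 genes that rose and 12 that fell of 26, beside 29.8% and 39.1% of all genes. Nfe2l2, which encodes the regulator NRF2 itself, read 8.01, 7.98, 8.09, 7.80 and 8.53 log2 in air and 10.25, 9.99, 9.72, 10.14 and 9.86 at 120 ppm, 3.75-fold higher (limma adjusted p = 1.9e-13). Its partner Mafg fell 2.00-fold. The quinone reductase Nqo1 rose 2.81-fold, thioredoxin (Txn1) 2.02-fold and peroxiredoxin 1 (Prdx1) 2.25-fold, each with the groups apart. Heme oxygenase, Hmox1, read 6.87 to 7.72 in air and 6.71 to 7.13 at 120 ppm and did not pass (limma adjusted p = 0.076). Without air mouse 1, the lowest of the controls, it was called at -0.57 (limma adjusted p = 0.0295). When the axis was included, 12 of the 22 calls of the list stayed.

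Enzymes for aldehydes, esters and lactones rose more often than they fell. Of 25 aldehyde and alcohol dehydrogenases and reductases, 10 rose and 5 fell, and of 15 flavin monooxygenases, carboxylesterases and paraoxonases, 8 rose and 2 fell. All 3 paraoxonases rose. Pon3 read 6.94 to 7.92 log2 in air and 9.07 to 9.61 at 120 ppm, 3.99-fold higher (limma adjusted p = 9.3e-13), Pon1 was 3.05-fold and Pon2 2.81-fold higher. Aldh1a7, an aldehyde dehydrogenase of the retinal family, rose 4.30-fold from 8.24 to 9.35 up to 10.61 to 11.09. Aldh3a2 rose 3.01-fold, Aldh6a1 2.93-fold and the monooxygenase Fmo1 2.16-fold. After adding the array axis, 6 of 15 and 4 of 10 calls of these lists stayed.

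**Figure D4:**
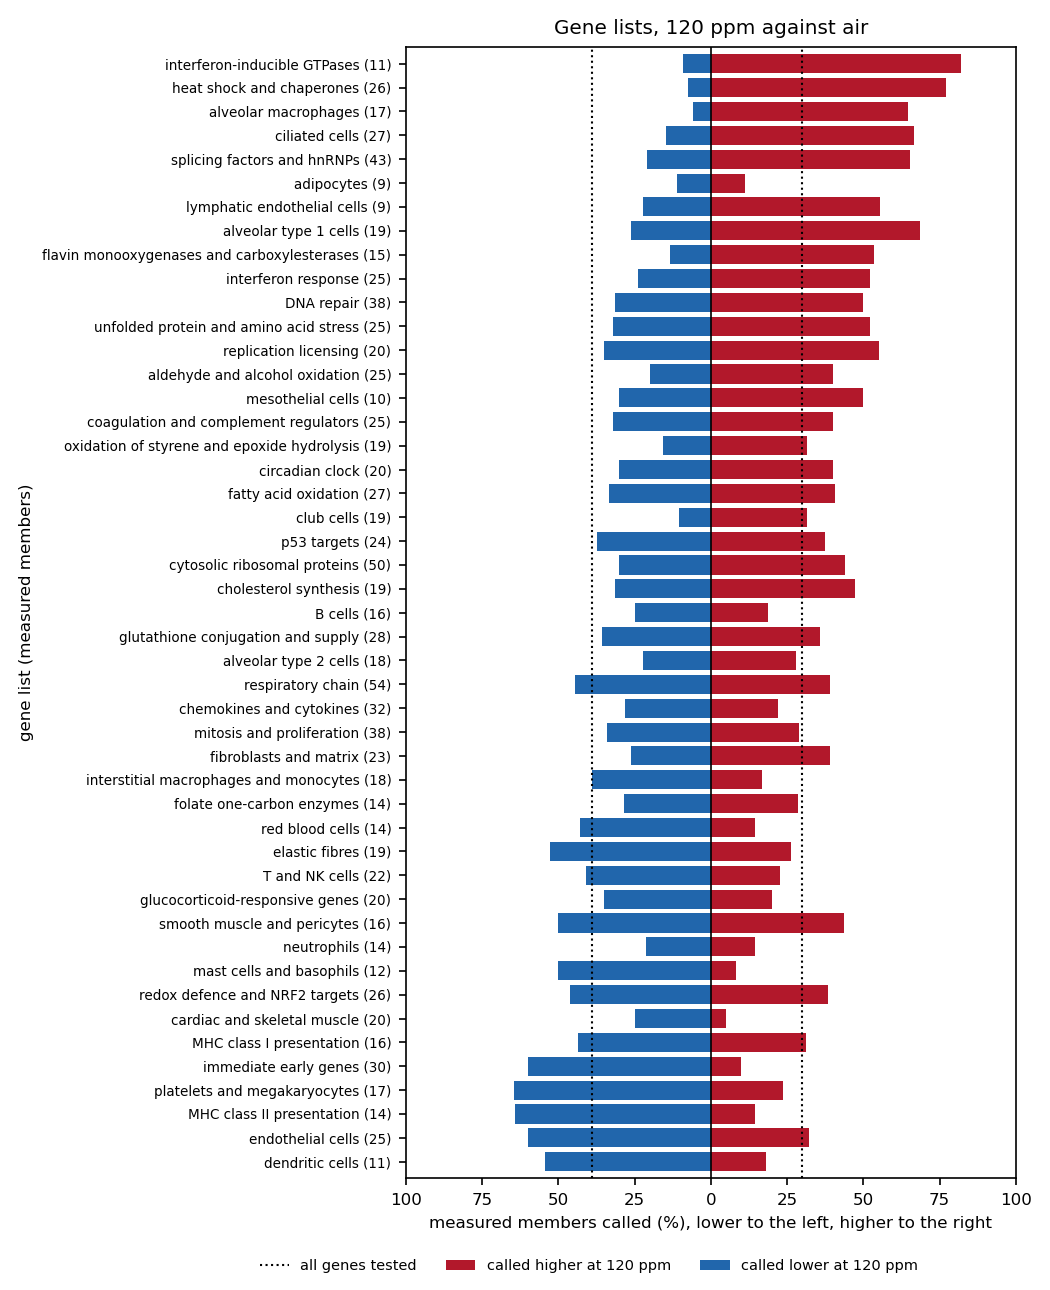
Share (%) of the measured members of 47 gene lists called higher at 120 ppm (red, to the right) or lower (blue, to the left) against air, ordered by median difference, with the number of members in brackets. Dotted lines give the shares over all genes tested, 29.8% higher and 39.1% lower. Interferon-inducible GTPases (9 of 11) and heat shock genes and chaperones (20 of 26) reach far right, and endothelial genes (15 of 25) and platelet genes (11 of 17) far left.

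In the airways, 6 of 19 club cell genes rose and 2 fell, beside 29.8% and 39.1% of all genes. Scgb1a1 did not pass (difference 0.09 log2, limma adjusted p = 0.13). It was called with a trended and robust prior (0.09, limma adjusted p = 0.0297) and with the 1 ppm mice in place of air (0.11, limma adjusted p = 0.0472). Gabrp, a GABA receptor subunit of club cells, read 5.92 to 7.67 in air and 8.62 to 9.26 at 120 ppm, 4.10-fold higher (limma adjusted p = 8.8e-08). Cldn10, a tight junction claudin, rose 2.93-fold. Ciliated cell genes rose in 18 of 27 cases and fell in 4, with a median of 0.84 log2. Bbs5, a subunit of the complex that loads cilia, read 3.08 to 3.95 in air and 5.96 to 6.22 at 120 ppm, 5.69-fold higher (limma adjusted p = 6.5e-15). Ccdc40, needed to dock the inner dynein arms, rose 3.61-fold. Foxj1, the regulator that switches on motile cilia, went the other way, from 7.84 to 9.05 down to 6.85 to 7.41 (2.13-fold lower, limma adjusted p = 0.0026). In the fit with the axis, 12 of the 22 ciliated calls stayed, Foxj1 at 0.16 not among them (limma adjusted p = 0.877).

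In the alveoli the type 2 list held 5 rises and 4 falls of 18, and the type 1 list 13 rises and 5 falls of 19. Among type 2 genes, Cebpa, a regulator of their maturation, fell 2.52-fold from 10.00 to 10.34 log2 down to 8.65 to 9.06. Lpcat1, which makes surfactant lipid, fell 1.85-fold. Scd1, a fatty acid desaturase, rose 2.09-fold and the chemokine Cxcl15 rose 1.55-fold. The second probe set of Scd1, with a mean of 8.77 over all arrays, was at 0.30 and was not called (limma adjusted p = 0.184). Among type 1 genes, Cav1, the coat protein of caveolae, read 10.55 to 11.30 in air and 12.19 to 12.27 at 120 ppm, 2.62-fold higher (limma adjusted p = 4e-13). Clic5, a chloride channel protein, rose 3.35-fold and the basement membrane collagen Col4a3 rose 3.17-fold. Igfbp2, a binding protein of insulin-like growth factors, fell 2.98-fold from 11.77 to 12.50 down to 10.22 to 10.86. The type 1 receptor gene Ager was 1.11-fold lower with overlapping groups (limma adjusted p = 0.02), a call lost without 120 ppm mouse 4 (difference -0.13, limma adjusted p = 0.0618). The second probe set of Ager, with means of 12.9 in air and 12.58 at 120 ppm, was at -0.32 (limma adjusted p = 3.7e-05). Under the array axis 3 of 9 type 2 calls and 7 of 18 type 1 calls stayed.

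Endothelial genes were lower in 15 and higher in 8 of 25 cases, with a median of -0.654 log2. The pair of angiopoietin receptors split. Tek (TIE2) read 8.50, 8.84, 8.72, 8.70 and 9.19 log2 in air and 10.80, 10.69, 10.39, 10.65 and 10.50 at 120 ppm, 3.51-fold higher (limma adjusted p = 1.4e-11). Its co-receptor Tie1 read 10.05, 10.13, 9.85, 9.51 and 9.67 in air and 8.63, 8.98, 8.61, 8.46 and 8.75 at 120 ppm, 2.23-fold lower (limma adjusted p = 7.6e-11). Neither gene's groups overlapped. Pecam1, the junction protein CD31, rose 2.24-fold, whereas Sox18, a regulator of vessel identity, fell 2.63-fold and the adhesion protein Icam2 fell 1.78-fold. Once the axis was added, 11 of the 23 calls stayed.

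Among genes of lymphatic vessels 5 of 9 rose and 2 fell. Fgl2, a fibrinogen-like protein, rose 3.54-fold. Lyve1, a hyaluronan receptor of lymphatic endothelium and some macrophages, was 4.29-fold higher with overlap, with air mouse 5 at 10.95 log2 while the other air mice read 7.56 to 8.27. Of 23 fibroblast and matrix genes 9 rose and 6 fell. Npnt, which ties alpha 8 integrin to the basement membrane, rose 3.11-fold and its receptor chain Itga8 rose 2.80-fold. Of 5 probe sets of Npnt 3 rose and 2 were not called. Dpt (dermatopontin) rose 2.43-fold, and the fibrillar collagen gene Col5a1 fell 3.01-fold from 8.35 to 8.97 down to 6.66 to 7.32. Smooth muscle and pericyte genes split evenly, 7 up and 8 down of 16. The kinase Mylk, which starts contraction, rose 1.58-fold and the mural cell receptor Notch3 fell 2.73-fold. Of 10 mesothelial genes 5 rose and 3 fell, Gpm6a 4.38-fold up and the keratin Krt19 1.92-fold down. When the axis was included, 4 of 7, 9 of 15, 2 of 15 and 2 of 8 calls stayed in these lists, in the order given.

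Most genes of the macrophages of the air spaces rose. Of 17 alveolar macrophage genes 11 rose and 1 fell, with a median of 1.15 log2, and without 120 ppm mouse 3 the counts were 9 and 1. Pparg, the receptor that sets their identity, read 4.30 to 5.01 in air and 5.86 to 7.24 at 120 ppm, 3.32-fold higher (limma adjusted p = 9.9e-10), with 120 ppm mouse 3 highest. Plet1 rose 2.60-fold. Marco, a scavenger receptor, spread widely, at 4.83, 6.92, 7.31, 6.03 and 5.79 in air and 6.57, 7.00, 6.35, 8.41 and 6.40 at 120 ppm, and did not pass (limma adjusted p = 0.12). Without air mouse 3 it did, at 1.05 (limma adjusted p = 0.0391). Of 18 genes of interstitial macrophages and monocytes 3 rose and 7 fell. The complement genes C1qa and C1qb fell 2.37-fold and 2.66-fold with some overlap, Ace fell 2.43-fold, and F13a1 rose 3.58-fold. Of the 12 alveolar macrophage calls 5 stayed with the array axis, and of the 10 interstitial ones 1 did.

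Genes of dendritic cells fell in 6 and rose in 2 of 11 cases, and Fscn1, given above, fell furthest. Irf8, a factor these cells need, fell 2.39-fold from 8.70 to 8.89 log2 down to 7.19 to 7.97. Zbtb46, a marker of conventional dendritic cells, rose 1.67-fold by its brightest probe set, and of its 4 probe sets 2 rose, 1 fell and 1 was not called. Of 14 neutrophil genes 2 rose and 3 fell. The granule genes Camp and Ngp fell 2.17-fold and 2.65-fold, while Mmp8 rose 2.04-fold with 120 ppm mouse 2 highest at 6.04. Of 16 B cell genes 3 rose and 4 fell. Ms4a1 (CD20) was 4.37-fold higher with overlap and Ly6d was 4.44-fold lower. Of 12 mast cell and basophil genes 1 rose and 6 fell, with Gata2 2.62-fold lower and the receptor Kit 1.84-fold higher. After adding the array axis, 2 of 8 dendritic calls, 0 of 5 neutrophil calls, 0 of 7 B cell calls and 1 of 7 mast cell calls stayed.

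The chains of the T cell receptor complex did not move together. Cd3g read 4.55, 5.17, 5.05, 5.06 and 5.86 log2 in air and 5.60, 6.16, 7.45, 5.98 and 6.54 at 120 ppm, 2.31-fold higher (limma adjusted p = 0.00036). Cd3d was 1.82-fold higher. Cd247, the zeta chain of the same complex, read 6.49, 6.64, 5.96, 6.24 and 6.30 in air and 4.75, 5.45, 5.75, 4.85 and 5.48 at 120 ppm, 2.09-fold lower (limma adjusted p = 3.3e-05). Cd3e was 1.70-fold lower, and the kinase Zap70, which binds the chains, was 2.77-fold lower. In 120 ppm mouse 3 all 4 receptor chains were the highest of its group, and without it Cd3d was not called (difference 0.60, limma adjusted p = 0.0519). Over 22 T and NK cell genes 5 rose and 9 fell, and without that mouse 1 rose and 11 fell. In the fit with the axis, 0 of the 14 calls stayed.

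Platelet genes fell in 11 and rose in 4 of 17 cases. The receptor for von Willebrand factor is built of glycoproteins Ib, V and IX. Gp1bb read 7.70, 7.84, 8.10, 8.31 and 8.14 log2 in air and 4.89, 5.87, 5.00, 3.77 and 5.04 at 120 ppm, 8.59-fold lower (limma adjusted p = 4.5e-10). Gp9 was 4.52-fold and Gp5 2.87-fold lower, and the fibrinogen receptor chain Itga2b was 4.46-fold lower. In each of these genes the exposed mice lay below all controls. Clec1b, the podoplanin receptor of platelets, went up 2.29-fold with the groups apart. Of 14 red cell genes 6 fell and 2 rose. Slc4a1 (band 3) fell 5.30-fold and Alas2, the first enzyme of heme synthesis in red cells, 2.75-fold from 10.32 to 11.03 down to 8.92 to 9.70, whereas the transferrin receptor Tfrc rose 2.40-fold. Under the array axis 7 of 15 platelet and 1 of 8 red cell calls stayed.

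Interferon-inducible GTPases, proteins that attack the vacuoles of microbes inside cells, had a median of 1.58 log2. Of 11 measured, 9 rose and 1 fell, and without 120 ppm mouse 3 the counts were 8 and 1 and the median 1.47. Their promoters are shown because most of these genes rose. This list and the interferon response list below hold genes known to respond to interferon. An interferon motif in their promoters is therefore no result of these data. RefSeq promoters, 250 bases before to 50 after the start, were at hand for 7 of the 11, and all 7 (Gbp2, Gbp3, Gbp7, Igtp, Irgm1, Irgm2 and Tgtp1) hold GAAA, any 2 bases and GAAA on either strand, a core of the interferon-stimulated response element (ISRE), beside 3.49% of 27025 promoters. The 150 bases before the start follow for 5 of them, 5′ to 3′ on the gene's strand, with the match in capitals, in build GRCm38.p6.
Tgtp1 (chr11:48992247-48992396, minus strand): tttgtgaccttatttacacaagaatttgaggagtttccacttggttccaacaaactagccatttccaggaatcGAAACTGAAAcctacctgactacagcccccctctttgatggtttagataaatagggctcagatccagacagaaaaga
Igtp (chr11:58199406-58199555, plus strand): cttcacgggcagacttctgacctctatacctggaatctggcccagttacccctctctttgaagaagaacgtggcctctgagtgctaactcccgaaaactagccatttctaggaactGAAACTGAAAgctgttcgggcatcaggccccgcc
Irgm2 (chr11:58214827-58214976, plus strand): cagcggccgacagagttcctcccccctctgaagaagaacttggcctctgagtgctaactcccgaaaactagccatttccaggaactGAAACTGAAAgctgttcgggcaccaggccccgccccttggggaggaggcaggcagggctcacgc
Irgm1 (chr11:48871421-48871570, minus strand): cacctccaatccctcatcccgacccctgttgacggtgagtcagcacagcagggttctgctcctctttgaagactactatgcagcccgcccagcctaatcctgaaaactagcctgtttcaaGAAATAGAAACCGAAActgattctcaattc
Gbp2 (chr3:142620513-142620662, plus strand): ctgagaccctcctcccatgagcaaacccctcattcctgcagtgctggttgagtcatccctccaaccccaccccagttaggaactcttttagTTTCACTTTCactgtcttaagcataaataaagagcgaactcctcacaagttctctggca

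The match begins 77 bases before the start in Tgtp1, 34 in Igtp, 64 in Irgm2 and 59 in Gbp2, where it is on the other strand. In Irgm1 a pair of matches overlap, from 30 and 24 bases before the start. The windows of Igtp and Irgm2 share a run of 38 identical bases, so the promoters of these close relatives are not independent of each other. Tgtp1 read 6.55, 6.20, 6.19, 7.33 and 7.14 log2 in air and 8.53, 10.03, 10.02, 9.21 and 8.97 at 120 ppm, 6.37-fold higher (limma adjusted p = 1.4e-07). Irgm1 read 4.97, 4.84, 4.66, 4.83 and 5.39 in air and 6.38, 7.27, 7.33, 6.86 and 6.83 at 120 ppm, 3.99-fold higher (limma adjusted p = 2.1e-09). In both genes 120 ppm mice 2 and 3 were the highest and 120 ppm mouse 1 the lowest of the exposed.

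Gbp2 was 3.25-fold higher, at 7.21 to 8.21 log2 in air and 9.19 to 9.45 at 120 ppm, and Irgm2 was 3.00-fold higher. Igtp was 2.04-fold higher with overlap (limma adjusted p = 0.017), with 120 ppm mouse 1 at 6.99, and the call was lost without air mouse 1 (difference 0.88, limma adjusted p = 0.0552), without 120 ppm mouse 2 (0.84, limma adjusted p = 0.0625) or without 120 ppm mouse 3 (0.83, limma adjusted p = 0.0633). Gbp3 and Gbp7 were 2.68-fold and 2.15-fold higher, and with the array axis Gbp7 was at -0.90. Gbp4 fell 1.77-fold and Gbp8 did not pass (limma adjusted p = 0.12). Of 25 other interferon response genes 13 rose and 6 fell, and 10 of 18 promoters held the ISRE core. Ifit1, which binds viral RNA, rose 4.50-fold, the RNA sensor Ddx58 (RIG-I) 2.63-fold and Oasl2 3.48-fold. The core was in 3.18% of promoters of all genes called higher, 2.34% of those called lower and 3.54% of those not called. Once the axis was added, 2 of 10 GTPase calls and 3 of 19 interferon response calls stayed.

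Interferon also induces genes of antigen presentation. Of 14 class II genes 2 rose and 9 fell, and without 120 ppm mouse 3 these counts were 1 and 8. H2-DMa and H2-DMb1, the chains of the peptide exchanger H2-DM, fell 2.55-fold and 2.45-fold, while cathepsin S (Ctss), which trims the invariant chain, rose 2.15-fold. Of 16 class I genes 5 rose and 7 fell, which is near the 29.8% and 39.1% of all genes. The immunoproteasome subunits Psmb9 and Psmb10 fell 2.23-fold and 1.94-fold and tapasin (Tapbp) fell 1.65-fold, while the trimming peptidase Erap1 rose 3.14-fold from 4.99 to 5.43 log2 up to 6.80 to 7.09. Only 2 of 11 class II calls and 2 of 12 class I calls stayed with the array axis.

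Of 32 chemokines and cytokines 7 rose and 9 fell, beside 29.8% and 39.1% of all genes. Tgfb1 read 7.06 to 7.86 log2 in air and 5.52 to 5.86 at 120 ppm, 3.48-fold lower (limma adjusted p = 1.7e-11). Cx3cl1, the endothelial chemokine fractalkine, fell 2.75-fold and Il18 rose 2.54-fold. Among 25 regulators of coagulation and complement 10 rose and 8 fell. Tissue factor (F3), which starts clotting, was 1.69 log2 higher and protein S (Pros1), which restrains it, was 2.01 higher. The complement shield Cd55 was 2.37 higher, and the urokinase receptor Plaur and von Willebrand factor (Vwf) were at -1.31 and -0.99. When the axis was included, 3 of 16 and 3 of 18 calls of these lists stayed.

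Chaperones rose as a group in number, 20 of 26 with 2 falls, and the median was 1.42 log2. The cytosolic chaperonin, a ring of 8 different subunits that folds actin and tubulin, was measured in full and 7 subunits rose. Cct8 read 6.14, 6.79, 6.30, 6.74 and 6.97 in air and 9.10, 8.71, 8.51, 8.76 and 8.69 at 120 ppm, 4.49-fold higher (limma adjusted p = 8.3e-13). Cct4 was 4.28-fold higher, from 7.79 to 8.33 up to 9.93 to 10.35. Cct7 alone did not pass, at 10.03 to 10.61 in air and 10.15 to 10.51 at 120 ppm (difference -0.07, limma adjusted p = 0.54). Probe sets differ in brightness, so levels of the subunits were not set against each other.

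Hspa4l, a nucleotide exchange factor of HSP70, rose 4.48-fold, and Hspa5 (BiP) of the endoplasmic reticulum was 1.60 log2 higher. Members that heat shock induces did not all rise. Hspa1b, inducible HSP70, read 11.28, 11.88, 9.93, 10.21 and 8.88 in air and 11.88, 10.35, 9.42, 9.74 and 8.61 at 120 ppm and did not pass (difference -0.44, limma adjusted p = 0.64). Dnajb1, its J-domain partner, did not pass either (difference -0.09, limma adjusted p = 0.89). Hspb8 and Bag3, partners in chaperone-assisted autophagy, fell 2.23-fold and 1.97-fold. The heat shock element (GAA, any 2 bases, TTC, any 2 bases, GAA, on either strand) was in 2 of 21 promoters of the list, those of Hspe1 and Hsph1, and in 0.529% of all. Both genes rose, Hspe1 1.74-fold and Hsph1 2.81-fold. After adding the array axis, 9 of the 22 calls stayed, none of the falls among them. Of 25 genes of the unfolded protein and amino acid stress responses 13 rose and 8 fell, and 7 of 21 calls stayed.

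Immediate early genes, which switch on within minutes of a stimulus, fell in 18 and rose in 3 of 30 cases, with a median of -0.494 log2. Junb read 9.18, 8.40, 7.95, 8.45 and 8.55 in air and 6.48, 6.75, 6.58, 6.80 and 6.54 at 120 ppm, 3.67-fold lower (limma adjusted p = 7.6e-11). Ier2 was 2.64-fold and Jun 1.93-fold lower, and the exposed mice read 8.55 to 8.78 for Ier2 and 9.29 to 9.37 for Jun. In the fit with the axis, 8 of the 21 calls stayed. Of 20 glucocorticoid-responsive genes 4 rose and 7 fell. The receptor itself, Nr3c1, rose 4.53-fold from 6.05 to 6.98 up to 8.45 to 8.94, and of its 5 probe sets 3 rose, 1 fell and 1 was not called. Hsd11b1, which makes the active hormone inside cells, rose 2.53-fold and Angptl4, an inhibitor of lipoprotein lipase, fell 2.87-fold. Of these 11 calls 3 stayed with the axis.

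Genes that respond to DNA damage went both ways. Of 24 p53 targets 9 rose and 9 fell, beside 29.8% and 39.1% of all genes. Mdm2, which marks p53 for destruction, read 5.72, 5.67, 5.83, 5.75 and 6.24 log2 in air and 7.95, 7.91, 7.60, 7.94 and 7.83 at 120 ppm, 4.02-fold higher (limma adjusted p = 4.4e-15). The cell cycle brake Cdkn1a read 9.51 to 10.22 in air and 7.87 to 8.75 at 120 ppm, 3.04-fold lower (limma adjusted p = 2.9e-05). Phlda3 fell 3.06-fold and the death gene Bbc3 (PUMA) 2.59-fold. Under the array axis 8 of the 18 calls stayed.

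Of 38 DNA repair genes 19 rose and 12 fell, beside 29.8% and 39.1% of all genes. Msh6, the mismatch sensor, rose 6.54-fold from 3.77 to 4.36 log2 up to 6.60 to 7.10 (limma adjusted p = 5.4e-16). Xrcc4 and Xrcc6 of end joining rose 4.03-fold and 2.56-fold, and Ercc1, of the nuclease that cuts out bulky adducts, fell 2.58-fold. Mitosis and proliferation genes were called at 11 higher and 13 lower of 38, near the shares over all genes. The clamp Pcna rose 1.81-fold and the ribonucleotide reductase Rrm1 3.69-fold, while the centromere histone Cenpa fell 2.42-fold. Of 20 replication licensing genes 11 rose, among them Orc5 at 3.42-fold, and 7 fell. Once the axis was added, 10 of 31, 5 of 24 and 7 of 18 calls of these lists stayed.

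Genes of the cell's basic machinery went both ways, also within single complexes. Of 54 respiratory chain subunits 21 rose and 24 fell, from Ndufs1 at 2.29 log2 to Uqcrc1 at -1.27. Of all genes 29.8% were called higher and 39.1% lower. The mean level of the list was 10.76 in 120 ppm mouse 3 and 10.16 to 10.24 in its group mates, and without that mouse 19 rose and 28 fell, with a median of -0.21 in place of -0.0757. Complex I held both Ndufs1 and Ndufs7, which was at -1.16, and Cyc1, of complex III like Uqcrc1, was at -1.10. Of 50 cytosolic ribosomal proteins 22 rose and 15 fell, from Rpl4 at 1.75 and Rpl7 at 1.65 to Rpl8 at -0.62. Splicing factors and hnRNPs rose in 28 and fell in 9 of 43 cases. Slu7, of the second splicing step, was at 2.54 and Sf3b1, which binds the branch site, at 2.21, whereas Hnrnpl was at -1.02 and Snrpa, of the U1 particle, at -0.94. When the axis was included, 21 of 45, 17 of 37 and 14 of 37 calls stayed.

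In lipid and one-carbon metabolism, 11 of 27 fatty acid oxidation genes rose and 9 fell. Acadm, the medium-chain dehydrogenase, read 8.05 to 8.65 log2 in air and 9.87, 9.89, 10.11, 10.14 and, in 120 ppm mouse 3, 11.16 after exposure, 3.88-fold higher (limma adjusted p = 3.1e-12). Etfa, which takes its electrons, was 3.95-fold and Hsdl2 5.84-fold higher. Acads, the short-chain enzyme, fell 2.72-fold. The same mouse was the highest of its group for all 4 of these genes, and without it 11 genes of the list rose and 11 fell. Cholesterol synthesis genes split 9 up and 6 down of 19, with the sterol enzyme Msmo1 at 2.01 and the sterol carrier Stard4 at 1.60 against Mvk at -1.44 and Dhcr7 at -1.61. Of 14 folate enzymes 4 rose and 4 fell, with thymidylate synthase (Tyms) at 0.93 and Shmt2 and Mthfd2l at -1.48 and -1.67. Of 5 probe sets of Tyms 1 rose, 1 fell and 3 were not called, and their mean was not called (limma adjusted p = 0.772). After adding the array axis, 10 of 20, 7 of 15 and 4 of 8 calls stayed.

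The core clock genes were unequal among the exposed mice. Per3 read 7.12, 7.30, 8.52, 9.20 and 8.93 log2 at 120 ppm and 5.04, 5.57, 5.94, 6.75 and 6.14 in air, 5.02-fold higher (limma adjusted p = 2.9e-05). Arntl (BMAL1), which peaks opposite to the Per genes, read 6.39, 6.00, 4.68, 3.62 and 4.03 at 120 ppm and 4.77 to 5.66 in air, so the exposed mice lay on both sides of the controls (limma adjusted p = 0.39). Dbp, an output gene, read 6.91, 7.56, 9.48, 9.80 and 9.63 at 120 ppm and 5.23, 5.75, 7.79, 8.51 and 7.23 in air (limma adjusted p = 0.064). Without air mouse 4 it was called at 2.18 (limma adjusted p = 0.0323), and likewise without 120 ppm mouse 1 (2.21, limma adjusted p = 0.0289) or 120 ppm mouse 2 (2.05, limma adjusted p = 0.0458). It was also called with the mouse number as a block (1.77, limma adjusted p = 0.00277) and in a fit of the 2 groups alone (limma adjusted p = 0.0396), and each 120 ppm mouse lay above the air mouse of the same number. Per2 rose 3.70-fold, Rora 4.75-fold and Npas2, a stand-in for CLOCK, fell 3.24-fold. Of 5 probe sets of Rora 3 rose, 1 fell and 1 was not called. Of 20 clock genes 8 rose and 6 fell, and 3 of the 14 calls stayed with the array axis. The labels give no hour of death for each mouse.

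Genes called higher spanned more of the genome than genes called lower. Gene span, the distance from start to end of the gene in RefSeq, was known for 99.8% of the genes. Its median was 36.1 kb for genes called higher, 13.5 kb for genes called lower and 18.9 kb for those not called. With genes split by span into 5 equal groups, 10.8% of the shortest were called higher and 53.7% lower, and of the longest 46.2% and 22.5%. Among genes with a mean of at least 8 log2 the pattern was as wide, 22.5% and 57.8% against 66.9% and 18.3%. It was seen within some lists. Of fatty acid oxidation genes over the median span of 20.1 kb, 11 of 16 rose and 2 fell, and of the shorter ones 0 of 11 rose and 7 fell. Of the longer endothelial genes 7 of 11 rose and 3 fell, and of the shorter ones 1 of 14 rose and 12 fell. Other lists did not follow it. All 8 short GTPases rose, short heat shock genes rose in 15 of 20 cases and fell in 1, and short splicing genes rose in 16 of 25 and fell in 7. Long elastic fibre genes fell in 7 of 13 cases and rose in 3. Between 120 and 40 ppm the median difference was -0.0242 log2 in the shortest and 0.00148 in the longest group.

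**Figure D5:**
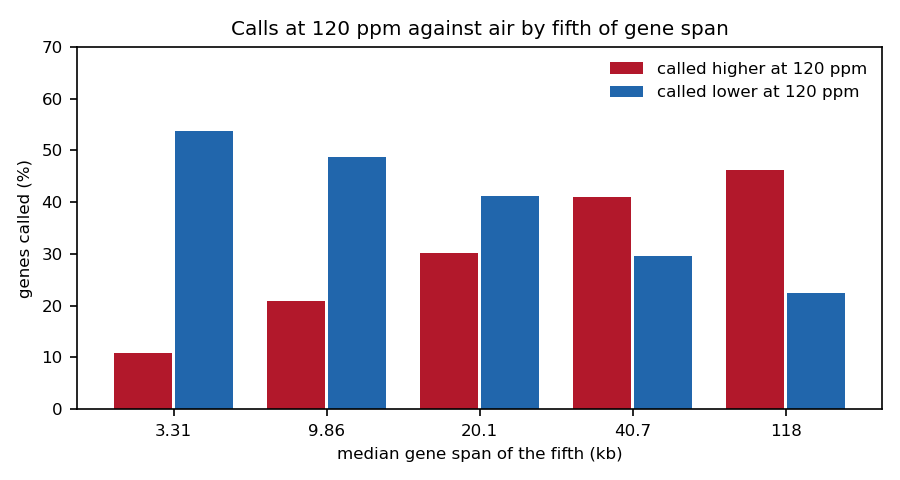
Share of genes (%, vertical axis) called higher (red) or lower (blue) at 120 ppm against air in 5 equal groups of genes by span, labelled with their median span (kb, horizontal axis). Higher calls grow from 10.8% to 46.2% and lower calls shrink from 53.7% to 22.5% from the shortest to the longest group.

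Brightness also went with direction. With genes split by mean level into 5 equal groups, 1.05% of the dimmest, at 2.39 to 3.52 log2, were called higher and 35.6% lower, and of the brightest 44.6% and 40.6%. Other probe sets of the same genes mostly gave the same result. Of 5420 called genes with more than 1 probe set, the second brightest was called in the same direction in 65.2%, in the opposite direction in 4.89% and not at all in 29.9%. Where the second probe set itself had a mean of at least 8 log2, these shares were 89.9%, 2.13% and 7.93%, and where it was under 5 log2, in 2469 genes, they were 42.2%, 6.16% and 51.6%. Common reference genes differed from each other as well. Gapdh was 1.37-fold lower at 120 ppm (limma adjusted p = 1.2e-06) and Actb was at -0.08 (limma adjusted p = 0.14). The second probe set of Actb was at -0.45 (limma adjusted p = 0.000265), and the mean of both at -0.27 was called (limma adjusted p = 0.000347).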

How the data were processed

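Whole-lung RNA of 35 mice was hybridised to 1 array each, of a mouse 3′ expression type. The values that the authors deposited are log2 probe set summaries. RMA, which corrects background, normalises and summarises probes, and Partek are named in the submitters' processing notes, with no versions. Of 45037 probe sets, 28898 carry exactly 1 symbol in the platform annotation, 551 carry several and 15588 none. Each of 17097 genes was represented by its probe set with 1 symbol and the highest mean over all 35 arrays, with no filter on dim genes. Arrays have no read depth, and their number limits the precision.

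Group means of all 7 groups were estimated per gene by limma 3.58.1 (lmFit and eBayes, R 4.3.3) and compared two-sided, with Benjamini-Hochberg adjustment over all genes. Fold changes are 2 to the power of the log2 difference, and ± after a difference is its standard error. The fit was tested on simulated data, with noise drawn independently for each gene. For 120 ppm against air it found 92 of 100 genes set to change by 1 log2, with 7 false calls. Few genes were set to change and no array-wide shift was simulated, whereas 68.9% of genes were called here. These numbers therefore need not carry over to the real comparison. The 47 gene lists (1039 of 1169 entries measured) and the comparisons were chosen with earlier results of these data known, so lists are described by counts and not tested. Named genes are the 12 largest rises and falls with a mean of at least 8 log2 and no overlap, from each list up to 4 called genes with the smallest adjusted p, a few genes of styrene metabolism, lung and reference use, all genes called against 40 ppm, and other list members by their values. Rpl4, Ndufs1 and other members given as the ends of a list's range were chosen after their values were seen. Promoters come from RefSeq (GRCm38.p6). Promoter base composition was not used, because fewer than 80% of genes had an entry. Alternatives were other uses of probe sets, quantile normalization, centring, dropping dim genes, fitting 2 groups, the mouse number as a block, another prior, 2 array-wide covariates, other thresholds, 1 ppm in place of air, and leaving out each mouse.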

Additional observations from a re-analysis of the deposited data

Results flagged for a closer look

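Groups of 5 mice were checked for 209 named genes and for array-wide measures, in air and at 120 ppm. In 31 of 424 such groups 1 mouse lay far from the other 4, with a gap over 0.71 of the group's range. Chance alone gives such a gap in about 1 of 20 groups. Of these, 12 were in air and 19 at 120 ppm. Each value below is the log2 level of that mouse, with the range of the other 4 mice of its group in brackets. 120 ppm mouse 3 read higher than its group for Fscn1 at 9.23 (7.886 to 8.004), Ephx2 at 8.63 (4.37 to 5.59), C1qb at 7.80 (6.90 to 7.11) and Acadm at 11.16 (9.87 to 10.14). Also higher in 120 ppm mouse 3 were Etfa at 9.97 (9.09 to 9.30), Acads at 7.59 (6.54 to 6.84), Gapdh at 12.10 (11.68 to 11.77) and Ucp1 at 11.39 (3.75 to 4.91). Also higher in 120 ppm mouse 3 were Ndufs1 at 9.09 (8.37 to 8.57), Uqcrc1 at 10.04 (9.13 to 9.37) and Cyc1 at 10.82 (9.88 to 10.07). 120 ppm mouse 3 read lower than its group for Efemp1 at 9.61 (10.25 to 10.37), Npnt at 10.79 (11.20 to 11.32) and Stard4 at 6.96 (7.29 to 7.38). Air mouse 1 read lower than its group for Fbln5 at 9.40 (10.12 to 10.31), Cyp4b1 at 12.18 (12.41 to 12.48) and Kit at 7.21 (8.11 to 8.40). 120 ppm mouse 2 read higher than its group for Mfap2 at 8.56 (7.77 to 7.95), Zbtb46 at 6.87 (6.28 to 6.39) and Ngp at 5.27 (3.98 to 4.33). 120 ppm mouse 5 read higher than its group for Plod1 at 8.09 (7.54 to 7.68). Air mouse 5 read higher than its group for Aldh6a1 at 8.27 (7.26 to 7.54), Lyve1 at 10.95 (7.55 to 8.27), Mdm2 at 6.24 (5.67 to 5.83) and Rrm1 at 6.65 (5.38 to 5.66). Also higher in air mouse 5 were Hsdl2 at 5.00 (4.35 to 4.52) and Sf3b1 at 8.48 (7.65 to 7.84). Air mouse 5 read lower than its group for Tapbp at 11.53 (11.64 to 11.66) and Ercc1 at 9.12 (9.38 to 9.45). Air mouse 2 read higher than its group for Ace at 8.25 (7.89 to 7.98). 120 ppm mouse 4 read lower than its group for Vwf at 10.24 (10.69 to 10.73).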

How the results depend on the processing

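The 120 ppm to air comparison gave 11206 to 11890 calls when each mouse was left out in turn. When every probe set was tested alone, 26797 were called, 12218 higher and 14579 lower. Leaving out genes under 5 log2 gave 4507 higher and 3912 lower calls, and a 1.5-fold limit 4204 and 3675, so the larger number turned from lower to higher. The array axis as covariate left 4160 calls, 2158 higher and 2002 lower, and with the interquartile range 5042, 2219 higher and 2823 lower. The cause was not tested. Against 40 ppm, where 3 genes were called lower, testing every probe set gave 8 calls, all lower, centring 6, leaving out dim genes 10 and a trended prior 5, all lower. Averaging the probe sets of each gene, a fit of the 2 groups alone and an adjusted p under 0.01 gave 0. Leaving out single mice gave 0 to 14 calls, with 0 to 3 higher and 0 to 11 lower. Second probe sets had the same sign in 85.1%, called or not.

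With the mouse number as a replicate block, 11863 genes were called against air, 5135 higher and 6728 lower, and 4 against 40 ppm, of which 1 was higher and which hold 2 of the 3 genes called without the block, Eln and Mrc2. Deviations of same-numbered mice correlated at -0.146 to 0.0922 for 120 ppm and air and at 0.0129 to 0.387 for 120 and 40 ppm. For 120 ppm and air no pair was over 0.1, and 1 mouse matched best with its own number. At 120 and 40 ppm 4 of 5 pairs were over 0.1 and 3 mice matched best with their own number. Whether the numbers pair the mice is not settled, and the main fit does not use them.

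Single genes changed sign as follows. With the array axis Lox was at -0.62, Ephx1 0.035, Scgb1a1 -0.044, Foxj1 0.16, Marco -0.37, Hspa1b 2.02, Bag3 0.067, Arntl 0.26, Nppa 5.18, Dnajb1 1.51 and Gbp7 -0.90. With the interquartile range Lox was at -0.18, Cyp4b1 0.049, Ephx1 0.066, Marco -0.31, Ctss -0.058, Hspa1b 1.96, Dnajb1 1.01 and Gbp7 -0.32. With the 1 ppm mice in place of air Hmox1 was at 0.14, Arntl 0.29, Nppa 1.01 and Dnajb1 0.17. Leaving out single mice gave ranges of -1.87 to 0.63 for Nppa, -0.019 to 0.014 for Sftpc, -0.25 to 1.66 for Ucp1 and -0.34 to 0.15 for Dnajb1. Of 195 called results for named genes, 71 were no longer called with the array axis. With 5 arrays a group, differences near 0.5 log2 were often missed in simulated data.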
